A study of Mus musculus with 2 samples.

Results

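Receptors that couple to heterotrimeric G proteins (GPCRs) were described here together with the proteins that relay and end their signal. They comprised the receptors named Gpr with a number, the adhesion receptors (Adgr), the lysophosphatidic acid receptors Lpar1 to Lpar6, the metabolite receptors Hcar2 and Ffar2, the G protein alpha, beta and gamma subunits, the regulators of G protein signalling (RGS), the beta-arrestins and the receptor kinases Grk2 to Grk6. Members were chosen by gene symbol, by a rule that used no signals but was set with earlier results of these data known. The rule took only probe sets that the annotation of the Mouse Genome 430 2.0 array assigns to exactly 1 gene. This gave 274 probe sets of 144 genes, out of 18193 genes on the array with such a probe set. The symbol rule also took in Gnasas1, an antisense transcript of the Gnas locus, and Gnb1l, which is not a G protein subunit. It took in the RGS-binding proteins Rgs7bp and Rgs9bp as well. None of these 4 was measured. Gpr137b-ps, a copy of Gpr137b, was also taken in, was measured and is counted as a Gpr gene.

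The 2 groups were bone-marrow-derived macrophages of C57BL6 mice, both grown in medium with serum and macrophage colony-stimulating factor, one group left without and the other treated with lipopolysaccharide (LPS), the Gram-negative cell wall component that Toll-like receptor 4 senses. Each group is 1 array of total RNA, and the labels give neither the age of the mice, the number of mice, the dose nor the duration of LPS. With 1 array per condition there is no spread between replicates and no test, and every difference below describes these 2 arrays only. The question is which of these genes had different signals in untreated and LPS-treated macrophages.

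As background, a GPCR that binds its ligand makes a G protein alpha subunit exchange GDP for GTP, upon which the alpha subunit and the beta-gamma pair act on separate effectors. RGS proteins speed up GTP hydrolysis by the alpha subunit and so shorten the signal, while G protein-coupled receptor kinases (GRKs) and arrestins act on the receptor itself and uncouple it. Macrophages use these receptors to move towards chemoattractants, to sense lipids, metabolites and acidity, and, through the adhesion class, to bind other cells and matrix.

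A signal is the MAS5 value of a probe set on a linear scale. The floor, below which signals were not read as levels, was each array's own median, 35.1 for the control and 26.7 for LPS, and genes whose probe set lay at or over it on either array count as measured. Of the 144 member genes 78 were measured, 62 of them on both arrays, 12 on the LPS array alone and 4 on the control array alone; the other 66 were under the floor on both. A gene that passed through 1 array alone had to differ in that direction or lie near the floor, so counts over the measured genes do not describe all members. Each gene is represented by its brightest probe set, signals of different genes are not compared with each other, and a ratio in which 1 signal was set to the floor is written as at least N-fold.

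All 8 macrophage markers looked up, among them Csf1r, Cd68 and Lyz2, reached the floor on both arrays, with summed signals of 42878 on the control and 46743 on the LPS array. Of 54 markers of 10 other cell types, 11 reached the control array's floor and 16 that of the LPS array. The summed signals of these 10 lists ran from 26.3 to 480 for the control and from 24.2 to 755 for LPS, the highest on both arrays being that of neutrophils. In that list S100a8 alone had 270 on the control and 440 on the LPS array. Its members Camp, Cxcr2, Mpo and Elane were under the floor on both arrays. On the LPS array Kdr, an endothelial marker, was at 225 against 63.8 and Pdgfrb, a stromal marker, at 170 against 3.97. Besides these, only Cdh5 of the 5 endothelial markers (29.8 against 15.7) and Col1a2 of the 6 stromal ones (41.9 against 36.8) reached the LPS array's floor. The part of other cells in the results below was not tested. The median of all 11722 measured genes lay at a log2 ratio (LPS over control) of -0.42 as deposited, while the hybridization controls had a median of -0.05 and the poly-A controls one of -0.29. Ratios are given as deposited, and counts are given also after centring the ratios on that median.

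The 78 measured members differed widely and in both directions. As deposited, 10 were higher with LPS by 2-fold or more (12.8% of the measured members, against 8.22% of all measured genes), 27 were lower by 2-fold or more (34.6%, against 26.2% of all measured genes), and 41 lay within 2-fold. After median centring, 15 were higher (19.2%, against 13.1%) and 21 lower (26.9%, against 15.3%). The share of the members past 2-fold that were higher was therefore 27.0% as deposited and 41.7% after centring, against 23.9% and 46.2% over all measured genes. The median log2 ratio of the measured members was -0.33, with a positive sign after median centring, quantile normalization or loess. Of the 37 members past 2-fold, 31 passed 2-fold in the same direction after centring, 10 higher and 21 lower, and these carry the description that follows. Of the 41 members within 2-fold, 25 changed sign under at least 1 of the 5 scalings tried, so no direction is read from them.

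**Figure D1:**
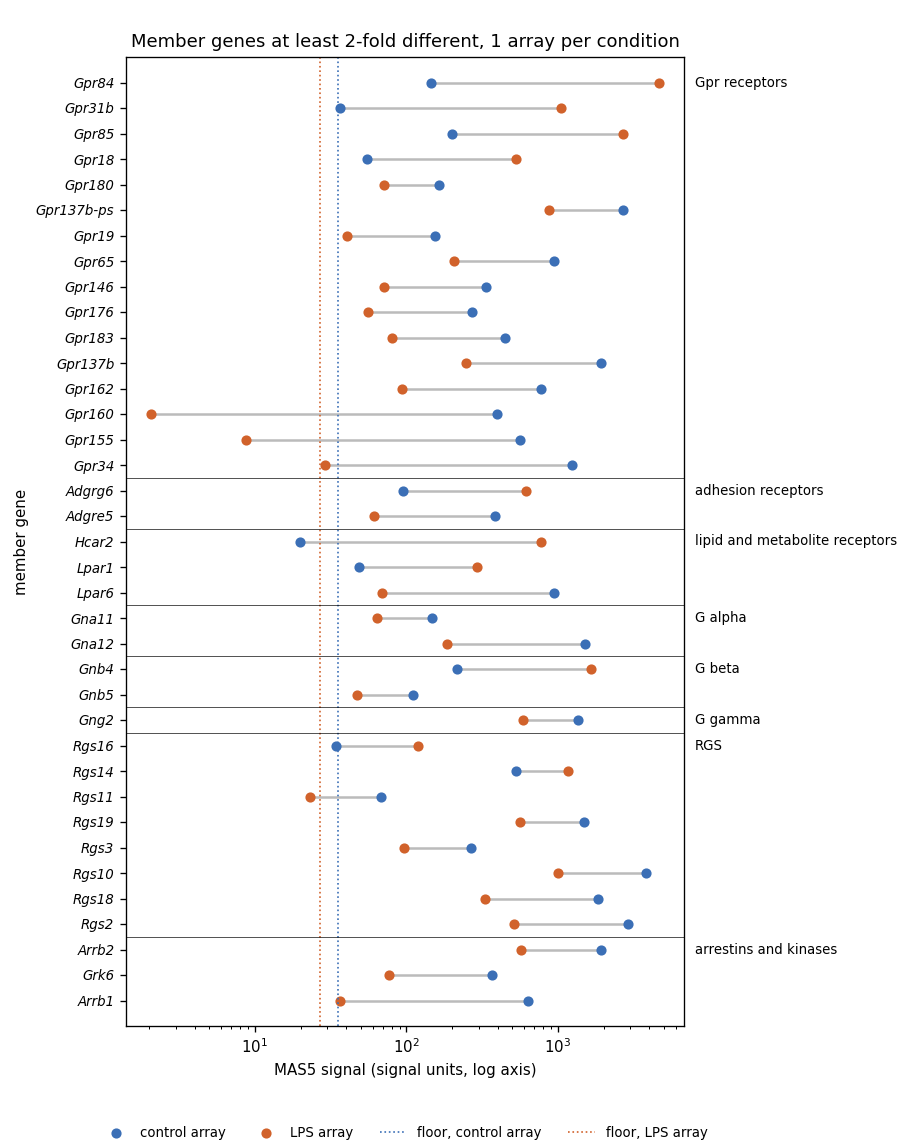
MAS5 signals (log axis, signal units) of the 37 member genes at least 2-fold different as deposited, on the control array (blue) and the LPS array (orange), grouped by class; dotted lines mark each array's floor and there is 1 array per condition. Gpr84, Gpr31b, Gpr85 and Hcar2 stand farthest to the right of their control signals, and Gpr34, Gpr155, Gpr160 and Arrb1 farthest to the left.

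Among the receptors, 4 of the 28 measured Gpr genes were much higher on the LPS array (14.3%, against 8.22% of all measured genes past 2-fold higher). Gpr84, a receptor that responds to medium-chain fatty acids, went from 145 on the control to 4621 on the LPS array, 31.9-fold higher, which placed it 52nd from the top of all 11722 measured genes. Gpr31b, the mouse counterpart of a human receptor described for the lipid mediator 12-HETE, went from 36.2, just above the floor, to 1053, 29.1-fold higher. With a control signal so near the floor, its ratio depended on the floor, and its log2 ratio fell from 4.86 to 3.53 when the floor was raised to the 65th percentile. Gpr85, an orphan receptor known mainly from the brain, went from 199 to 2694, 13.6-fold higher, and its other measured probe sets gave log2 ratios of 3.69 and 3.52 against 3.76. Gpr18, a receptor for which N-arachidonoyl glycine and resolvin D2 have been proposed as ligands, went from 55.2 to 529.5, 9.59-fold higher, and its log2 ratio of 3.26 became 2.54 with the higher floor.

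Promoter sequences of 4 Gpr genes are shown, and none was available for Gpr34, the member with the lowest ratio. Gpr31b and Gpr84 had the highest ratios of all members with signals set to the floor where needed (that of Hcar2 is a lower bound). Gpr18 and Gpr183 follow each other by start among the protein-coding genes of chromosome 14 and had signals that went opposite ways. Each sequence is the run of 250 bases before the RefSeq start, from build GRCm38.p6, read 5′ to 3′ on the strand of the gene. Any activity of these stretches was not measured. Capitals mark matches to the motifs searched; Gpr84 has none. The locations, all on the minus strand, are chr17:13052281-13052530 for Gpr31b, chr15:103310439-103310688 for Gpr84, chr14:121915889-121916138 for Gpr18 and chr14:121965194-121965443 for Gpr183.
Gpr31b: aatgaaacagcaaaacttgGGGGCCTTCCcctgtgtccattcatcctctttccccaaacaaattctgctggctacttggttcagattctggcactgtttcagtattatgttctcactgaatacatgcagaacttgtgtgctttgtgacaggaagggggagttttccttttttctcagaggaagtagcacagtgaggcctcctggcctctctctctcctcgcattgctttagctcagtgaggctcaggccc
Gpr84: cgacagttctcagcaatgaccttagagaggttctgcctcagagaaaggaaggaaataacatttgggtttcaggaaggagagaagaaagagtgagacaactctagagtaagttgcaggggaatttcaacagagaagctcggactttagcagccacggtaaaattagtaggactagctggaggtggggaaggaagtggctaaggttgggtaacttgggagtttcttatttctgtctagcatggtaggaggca
Gpr18: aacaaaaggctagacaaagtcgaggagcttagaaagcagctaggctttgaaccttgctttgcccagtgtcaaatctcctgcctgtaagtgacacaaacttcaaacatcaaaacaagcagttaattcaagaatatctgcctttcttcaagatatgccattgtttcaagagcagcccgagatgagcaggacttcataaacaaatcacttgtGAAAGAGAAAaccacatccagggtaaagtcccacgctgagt
Gpr183: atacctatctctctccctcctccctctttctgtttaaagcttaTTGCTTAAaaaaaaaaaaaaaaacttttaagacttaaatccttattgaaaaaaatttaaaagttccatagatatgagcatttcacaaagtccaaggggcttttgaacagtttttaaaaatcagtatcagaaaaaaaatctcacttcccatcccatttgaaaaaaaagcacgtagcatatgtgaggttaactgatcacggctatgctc
The capitals in Gpr31b match the NF-kB consensus and begin 231 bases before the start. Those in Gpr18 match the interferon-stimulated response element core GAAANNGAAA and begin 41 bases before it, and those in Gpr183 match the C/EBP motif TTNNGCAA on the opposite strand and begin 207 bases before it. A match describes letters only, not a bound site.

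The motifs were searched on both strands, and no matches overlapped in these 4 sequences. Of the members, 109 had an entry in the promoter table outside chromosome 18. The NF-kB consensus was present for 14 of them (12.8%) and for 8.23% of all 27025 genes with an entry. Among the members past 2-fold both as deposited and after centring, it was present for 1 of 7 higher genes with an entry, Gpr31b, and for 2 of 13 lower ones, Gpr176 and Grk6. GAAANNGAAA was present for 4.59% of members and 3.46% of all genes, among them the higher gene Gpr18 and the lower gene Gpr19. TTNNGCAA was present for 7.34% of members and 10.8% of all genes, including the lower genes Gpr183 and Rgs3. The AP-1 motif TGANTCA (9.17% of members, 7.82% of all genes), the cAMP response element TGACGTCA (0.917% and 1.77%) and the E-box CACGTG (6.42% and 6.86%) were in none of these 7 higher and 13 lower genes.

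On the lower side, 12 of the 28 measured were at least 2-fold lower (42.9%, against 26.2% of all measured genes), and 11 after centring (39.3%, against 15.3%). Gpr34, a receptor for lysophosphatidylserine, went from 1236 to 29.2, just above the floor, and lay 6th from the bottom of all measured genes. Gpr155, a lysosomal cholesterol-sensing protein, went from 559 to 8.75, under the floor, at least 20.97-fold lower. The orphan receptor gene Gpr160 went from 398 to 2.07, also under the floor, at least 14.9-fold lower. Each of these 3 genes rests on 1 measured probe set and had an LPS signal under or close to the floor, so the size of the ratio depends on the floor. With the floor at the 65th percentile the log2 ratios of -5.41, -4.39 and -3.90 became -4.36, -3.22 and -2.73.

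Gpr162, another orphan receptor gene, went from 774 to 93.1, 8.31-fold lower. Gpr176, an orphan receptor known from the central circadian clock, went from 270.1 to 55.7, 4.85-fold lower, and the orphan gene Gpr19 from 155 to 40.3, 3.85-fold lower. Gpr146, an orphan receptor studied in liver cholesterol metabolism, went from 335 to 71.4, 4.69-fold lower, but its probe sets disagreed. The other 3 gave log2 ratios of -3.17, -1.54 or lower (LPS signal under the floor) and 0.01. Gpr180 went from 164 to 71.0, 2.30-fold lower, and was within 2-fold after centring.

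Gpr137b, whose product sits on lysosomes and regulates the Rag GTPases of mTORC1 signalling, went from 1929 to 248, 7.77-fold lower. Its other measured probe sets had log2 ratios between -1.94 and -1.28, so all were lower but by less, and the median over its probe sets was -1.71 against -2.96. Gpr137b-ps, a copy of the gene, went from 2669 to 876, 3.05-fold lower. Because the array has probe sets that bind transcripts of both, which of the pair the signal comes from is uncertain. Both are counted among the 12 lower Gpr genes and the 11 after centring. These counts may therefore include the same signal under both symbols.

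Gpr183, which follows Gpr18, is the oxysterol receptor also called EBI2, which guides immune cells within lymphoid tissue. Its signal went from 447 to 80.3, 5.57-fold lower, with the second probe set at -1.68 on the log2 scale. Of 4 pairs of member genes that follow each other by start and were both measured, this was the only pair with both past 2-fold in opposite directions. Gpr65, which senses extracellular protons, went from 946 to 207, 4.57-fold lower. Gpr132, placed in the same proton-sensing family, had 78.4 and 112, a log2 ratio of 0.51, and Gpr4 was under the floor on both arrays.

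The remaining 12 measured Gpr genes were within 2-fold. Gpr108, Gpr107 and Gpr89, which encode proteins of the Golgi and other inner membranes, had 525 and 622, 366 and 330, and 297 and 222 on the control and LPS arrays. Gpr107 had probe sets from -0.61 to 0.92 on the log2 scale. Gpr35, a receptor of mucosal and myeloid cells, was under the floor on the control array (23.5) and at 65.2 on the LPS array, a floored log2 ratio of 0.90 that becomes 1.32 after centring. The 33 unmeasured Gpr genes included the lysophosphatidylserine receptor gene Gpr174, with 12.9 and 12.5.

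Of Lpar1 to Lpar6, Hcar2 and Ffar2, 4 were measured. Of these 4, 2 were higher, 1 was lower and 1 was within 2-fold, both as deposited and after centring. Of all measured genes, 8.22% were higher and 26.2% lower as deposited, and 13.1% were higher and 15.3% lower after centring. Hcar2, the receptor for nicotinic acid and beta-hydroxybutyrate, went from 19.96, which is below the floor, to 775, at least 22.1-fold higher, or 3.09 against 4.47 on the log2 scale with the higher floor. Ffar2, a receptor for short-chain fatty acids, was near the same level on both arrays, at 74.0 and 78.4. The lysophosphatidic acid receptor genes Lpar1 and Lpar6 went opposite ways. Lpar1 went from 48.8 to 293, a log2 ratio of 2.59, and its other probe sets, with control signals under the floor, gave log2 ratios of at least 2.83 and 0.98. With the higher floor the ratio of Lpar1 became 1.69. Lpar6 went from 942 to 68.5, 13.8-fold lower, by 1 probe set. Lpar2, Lpar3 and Lpar4 were under the floor on both arrays. Of the 3 measured receptors for lysophospholipids, none was within 2-fold. Lpar1 was higher (33.3%, against 8.22% of all measured genes), and Lpar6 and Gpr34 were lower (66.7%, against 26.2%).

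The adhesion receptors were mostly dim or little different. Of 22 genes 8 were measured. As deposited 1 was higher (12.5%, against 8.22% of all measured genes), 1 lower (12.5%, against 26.2%) and 6 within 2-fold. After centring 2 were higher (25.0%, against 13.1%). Adgrg6, also known as GPR126 and required for myelination by Schwann cells, went from 94.2 to 612, 6.49-fold higher, with the second probe set at 2.82 against 2.70 on the log2 scale. Adgre5, which encodes the leukocyte protein CD97 that binds CD55, went from 386 to 60.7, 6.35-fold lower, by 1 probe set. Adgrl2, a latrophilin, had 345 and 654, a log2 ratio of 0.92 that becomes 1.34 after centring, and its second measured probe set was at 1.11.

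The myeloid adhesion receptors of the Adgre group differed in the size of their ratios. Adgre1, which encodes F4/80, had 6967 and 7338, a log2 ratio of 0.07 (negative under quantile normalization). Adgre4 had 158 and 84.0, a log2 ratio of -0.91, and -1.59 or lower by its second probe set, with an LPS signal under the floor. Adgre5 was the only gene of this group past 2-fold by its brightest probe set. Adgrg3, Adgrl4 and Adgra3 had control signals from 46.9 to 49.4, not far above the floor, and were within 2-fold.

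**Figure D2:**
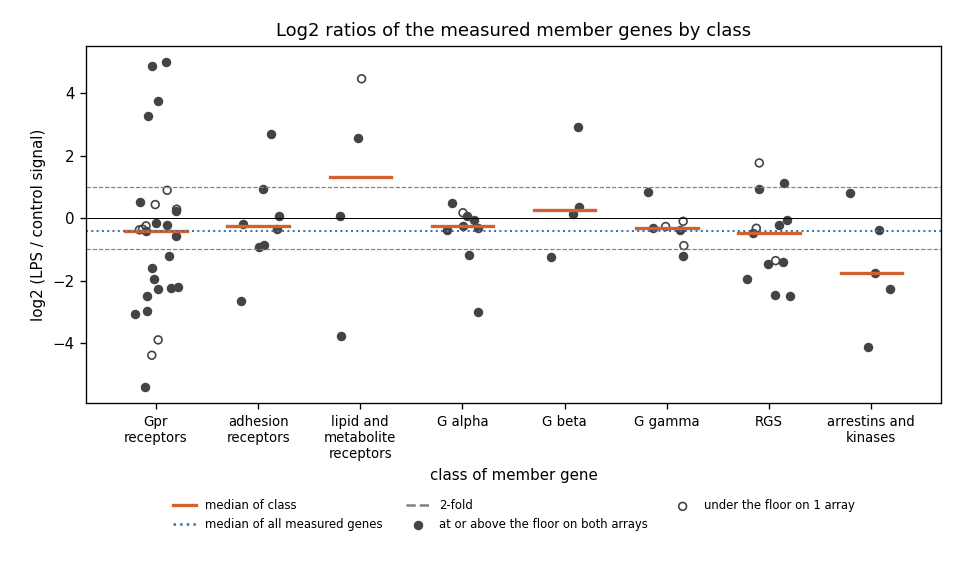
Log2 ratio of LPS over control signal for the 78 measured member genes, 1 point per gene, by class; orange bars are class medians, the dotted blue line is the median of all measured genes (-0.42) and dashed lines mark 2-fold. The Gpr receptors spread from -5.41 to 4.99. Of the 20 G protein subunits 15 lie within 2-fold, as do 7682 of all 11722 measured genes. The median of arrestins and kinases is -1.74.

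Of 20 measured G protein subunits, 15 were within 2-fold as deposited, 1 was higher (8.22% of all measured genes were) and 4 were lower (26.2% of all measured genes were), and 2 were higher and 1 lower after centring. Among the alpha subunits, Gna12, of the G12/13 class, and Gna11 were lower as deposited, and Gna12 alone after centring. Gna12 went from 1501 to 186, 8.08-fold lower. Its other measured probe sets gave log2 ratios of -3.42, -3.64 and, with an LPS signal under the floor, -2.23 or lower. Gna13, the closest relative of Gna12 and of similar function, had 2800.5 and 2967, a log2 ratio of 0.08 (negative under quantile normalization). Its 7 probe sets had log2 ratios between 0.06 and 1.05, so on these arrays no probe set of Gna13 was lower as deposited and every measured probe set of Gna12 was.

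None of the alpha subunits other than Gna12 was past 2-fold after centring. Gnai2, the main inhibitory alpha subunit of leukocytes, had 5261 and 4199, and Gnai3 had 2125 and 1781. Gnas, the stimulatory subunit that activates adenylyl cyclases, had 4574 and 3538. Their log2 ratios of -0.33, -0.25 and -0.37 turn positive after median centring, and that of Gnai3 also after scaling to the poly-A controls. In the Gq class, Gnaq had 1035 and 1003, and Gna15, a subunit of blood cells that couples to many receptors, had 142 and 199.7, a log2 ratio of 0.49. Gna11 went from 147 to 64.4, 2.28-fold lower, but was within 2-fold after centring and at -0.45 by its other probe set. Gnao1 reached the floor on the LPS array alone, at 39.6, and Gnai1 and Gna14 on neither.

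Of the beta subunits, Gnb4 stood apart from the rest. It went from 216 to 1647, 7.63-fold higher, with its other probe sets at 2.23 and 1.28 against 2.93 on the log2 scale. Gnb1 and Gnb2, broadly expressed beta subunits, had 2326 and 3012 and 3409 and 3735, log2 ratios of 0.37 and 0.13, the latter turning negative under quantile normalization. Gnb5, the beta subunit that pairs with RGS proteins of the R7 class, went from 111 to 47.4, 2.34-fold lower, and was within 2-fold after centring. Its R7 partner Rgs11 went from 68.4 to 23.2, under the floor, at least 2.57-fold lower, and was also within 2-fold after centring, while the R7 gene Rgs9 had 83.6 and 80.05.

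Gng2 was the gamma subunit gene whose size of difference depended most on the probe set. Its brightest probe set went from 1357 to 586, 2.32-fold lower, and was within 2-fold after centring. The other 3 gave log2 ratios of -2.79, -2.82 and -3.03, and the median over all 4 was -2.80. Gng12 pointed the other way, from 892 to 1598, a log2 ratio of 0.84 that was matched by 0.86 for its second probe set and becomes 1.26 after centring. Gng10 had 1604 and 1232 and Gng11 had 233 and 188, log2 ratios of -0.38 and -0.31 that turn positive after centring, that of Gng11 also under quantile normalization and loess. Gng4, Gng7 and Gng8 were at the floor on 1 array alone.

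**Figure D3:**
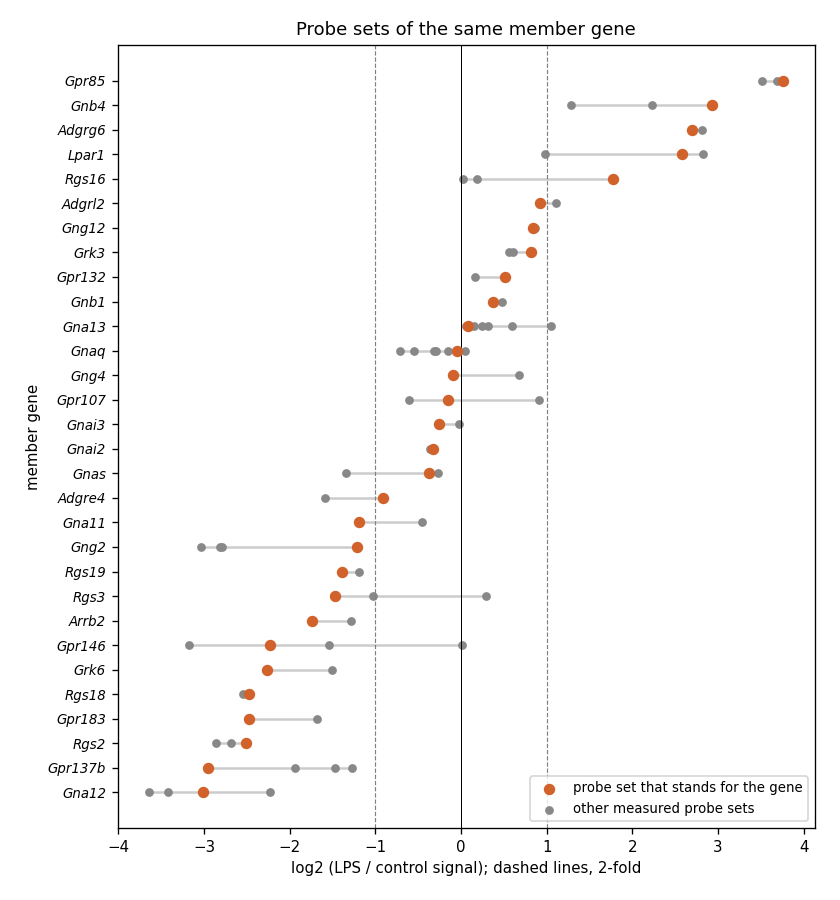
Log2 ratio of LPS over control signal for every measured probe set of the member genes with at least 2 measured probe sets; the orange point is the brightest probe set, which stands for the gene, and grey points are the others. The probe sets of Rgs2, Rgs18 and Gpr85 lie close together, whereas those of Gng2, Gpr146 and Rgs16 spread widely.

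The RGS genes lay on both sides. Of 13 measured, 6 were at least 2-fold lower (46.2%, against 26.2% of all measured genes), 2 higher (15.4%, against 8.22%) and 5 within 2-fold, and after centring 4 were lower (30.8%, against 15.3%) and 3 higher (23.1%, against 13.1%); the median of -0.49 became -0.06. In the R4 class, the small RGS proteins that act on the Gi and Gq subunits, Rgs2 went from 2917 to 514, 5.68-fold lower, and its other measured probe sets were at -2.86 and -2.69 against -2.51 on the log2 scale. Rgs2 is known for its preference for Gq. Rgs18, an RGS protein of platelets and myeloid cells, went from 1826 to 329, 5.54-fold lower, with its second probe set at -2.55. Rgs3 went from 268 to 96.7, 2.77-fold lower, but its probe sets ranged from -1.47 to 0.30 and it was within 2-fold under quantile normalization and loess.

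Against these, 2 other R4 genes were on the higher side. Rgs1, an R4 protein that restrains chemokine receptor signalling, had 354 and 674, a log2 ratio of 0.93 that becomes 1.35 after centring. Rgs16 went from 34.02, below the floor, to 119.6, at least 3.41-fold higher. Its other 2 probe sets gave floored log2 ratios of only 0.02 and 0.19, and its ratio dropped to 0.40 with a floor at the 65th percentile, so the size of its difference was not settled. Rgs1, Rgs2 and Rgs18 lie in 1 run of RGS genes on chromosome 1 together with Rgs13 and Rgs21, of which Rgs13 was under the floor on both arrays and Rgs21 had no probe set of its own in the annotation used.

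In the R12 class the 3 genes divided. Rgs10, which is abundant in macrophages and microglia, went from 3836 to 1006, 3.82-fold lower, by 1 probe set. Rgs14, which also binds Ras and Rap GTPases, went from 529 to 1164, 2.20-fold higher and 2.95-fold after centring. Rgs12 had 64.5 and 55.4. In the RZ class Rgs19, also called GAIP, went from 1479 to 565, 2.62-fold lower with its second probe set at -1.19, and was within 2-fold after centring, while Rgs20 (58.3 and 41.6) and Rgs17 (19.97 and 28.1) were close to the floor.

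The arrestin and receptor kinase genes were the class with the lowest median, -1.74 as deposited and -1.32 after centring. Of 5 measured, 3 were lower under both (60.0%, against 26.2% of all measured genes as deposited and 15.3% after centring). Arrb1, which encodes beta-arrestin 1, went from 635 to 36.3, 17.5-fold lower, by 1 probe set. Its LPS signal is near the floor, and its log2 ratio of -4.13 became -3.40 with the floor at the 65th percentile. Arrb2, which encodes beta-arrestin 2, went from 1912 to 573, 3.34-fold lower, with the second probe set at -1.29 against -1.74. Both arrestins bind phosphorylated receptors, stop their coupling to G proteins and help to internalize them.

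Of the kinases that phosphorylate receptors for the arrestins, Grk6 went from 368 to 76.7, a log2 ratio of -2.26, and its other probe sets were at -2.26 and -1.50. Grk3 pointed the other way, from 134 to 237, a log2 ratio of 0.82 that becomes 1.24 after centring. Its other probe sets were at 0.61 or higher (control signal under the floor) and 0.56. Grk5 had 93.8 and 72.6, a log2 ratio of -0.37 (positive under quantile normalization, centring and loess). Grk4 was under the floor on both arrays, and Grk2 had no probe set that met the rule.

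**Figure D4:**
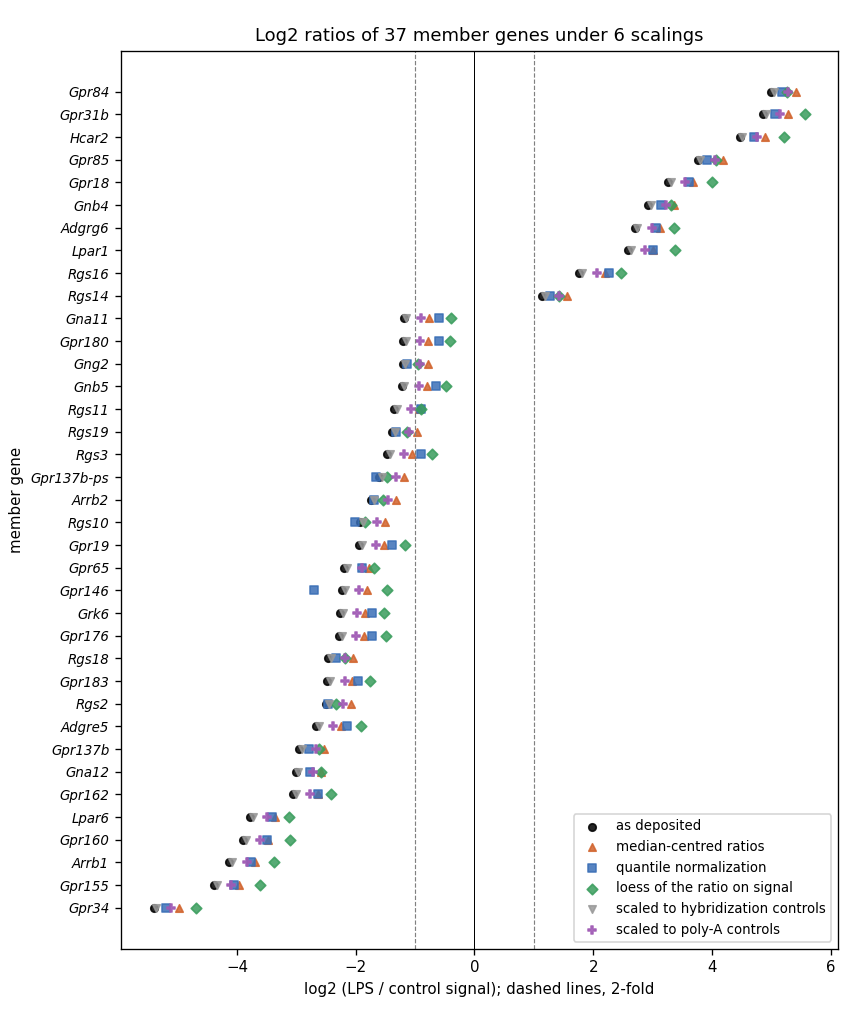
Log2 ratio of LPS over control signal for the 37 member genes past 2-fold as deposited, under the deposited scale and 5 other scalings (symbols); dashed lines mark 2-fold. All 10 higher genes and 20 of the 27 lower genes stay past 2-fold under every scaling, and the 7 that do not are Gna11, Gpr180, Gng2, Gnb5, Rgs11, Rgs19 and Rgs3.

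Genes of the same pathway outside the members were read from 3 lists. Of 24 measured effectors of G proteins, 2 were at least 2-fold higher (8.33%, against 8.22% of all measured genes) and 6 lower (25.0%, against 26.2%) as deposited, and 3 and 3 after centring (12.5% each, against 13.1% and 15.3%), with a median of -0.60 against -0.42 for all genes. The higher ones were Pik3r5, from 1016 to 4410, 4.34-fold, and Pik3r6, from 453 to 1673, 3.69-fold. Their products are the regulatory subunits that let beta-gamma subunits activate phosphoinositide 3-kinase gamma. Pik3cg, the gene of the catalytic subunit, was on the other side, from 445 to 199.7, 2.23-fold lower and within 2-fold after centring. The adenylyl cyclase gene Adcy9 went from 606 to 49.6, 12.2-fold lower, with its 4 probe sets from -4.08 to -1.50, and Adcy7 from 3465 to 1186, 2.92-fold lower. The phospholipase gene Plcb2 went from 83.1 to 28.3, 2.93-fold lower, and the remaining lower effectors were Arhgef12, 2.15-fold, and Adcy3, 2.02-fold. Of these 6 lower genes all but Adcy9 fell outside the rule for naming and were chosen after their values were seen. The phospholipase C genes Plcb3, with 216 and 347, and Plcb1, with 25.9 (under the floor) and 49.5, had log2 ratios of 0.69 and 0.50, more than 2-fold above the median of their list.

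Of 12 measured other subunits and regulators, 0 were higher (8.22% of all measured genes were) and 3 lower (25.0%, against 26.2%). After centring 2 were lower (16.7%, against 15.3% of all measured genes). Akap10, an anchoring protein with RGS domains, went from 558 to 177, 3.16-fold lower, Gpsm3, which holds inhibitory alpha subunits in their GDP form, from 1259 to 457, 2.75-fold lower, and the related Gpsm1 from 80.2 to 31.0, 2.59-fold lower. Of 8 measured further lipid, metabolite and protease receptors, 0 were higher as deposited (8.22% of all measured genes were). As deposited 2 were lower (25.0%, against 26.2% of all measured genes). These were the cannabinoid receptor gene Cnr2, from 322 to 8.55, under the floor, at least 12.1-fold lower, and S1pr1, the sphingosine 1-phosphate receptor gene that controls lymphocyte egress, from 531 to 49.6, 10.7-fold lower. After centring 2 of the 8 were lower (25.0%, against 15.3% of all measured genes) and 2 higher (25.0%, against 13.1%). The higher ones were the histamine receptor gene Hrh2 and the thrombin receptor gene F2r, each from a control signal under the floor.

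The 66 member genes under the floor on both arrays were 33 Gpr genes, 14 adhesion receptors, 3 lysophosphatidic acid receptors, 2 genes each among the alpha, beta and gamma subunits, 8 RGS genes, Grk4 and Gnasas1. Gnb1l is counted here with the beta subunits, and Rgs7bp and Rgs9bp with the RGS genes. Many of the 66 are known from brain, retina or other tissues. Examples are the adhesion receptors of the Adgrb group and the olfactory and taste subunit Gng13. The 66 genes can be described only as not measured here. None of their other probe sets reached the floor on either array. The 12 genes measured on the LPS array alone were, besides Hcar2 and Rgs16, 10 genes with LPS signals from 27.1 for Gpr20 to 65.2 for Gpr35, all within 2-fold of the control floor. The 4 measured on the control array alone were Gpr155, Gpr160, Rgs11 and Gng7, the last with 49.0 and 17.1.

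Agreement between probe sets of the same gene gauges only the spread between probe sets. These were all read on the same 2 arrays, so error of the RNA samples, labelling or arrays was not measured. Over 25 members with at least 2 probe sets that reached the floor on each array, the median SD of the log2 ratios was 0.32, against 0.28 over 4494 genes. Among the members past 2-fold, 17 had at least 2 measured probe sets, and in 15 of these every probe set pointed the same way, the exceptions being Gpr146 and Rgs3. No member had probe sets past 2-fold in both directions. The other 20 members past 2-fold, among them Gpr84, Gpr34, Hcar2, Lpar6 and Arrb1, rest on a single measured probe set.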

How the data were processed

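Total RNA of 2 macrophage cultures, 1 control and 1 LPS-treated, was hybridized to 1 array each. The deposited values are linear intensity values per probe set, made by the authors with MAS5 per the submitters' processing notes; its version and scaling target, and any detection calls, are not stated there. Signals ran from 0.018 to 14444. With 1 array per group no p-value was computed; this number limits the precision.

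Of 45101 probe sets, 64 were array controls and 34945 had 1 gene in the platform annotation; only these were named, and all 144 members matched a RefSeq gene identifier (GRCm38.p6). The floor was the 50th percentile of each array, the brightest probe set (highest mean log2 signal) stood for a gene, and 2-fold was the size threshold. Alternatives are listed in the closing section. Members, lists and motifs were chosen with earlier results of these data known. Member genes past 2-fold as deposited and after centring are named with both signals; of each class the brightest others are named too, and from the 3 outside lists the 3 largest ratios in size and those past 2-fold against the list's median; 5 further effectors were named after their values were seen. Promoters are from RefSeq (GRCm38.p6), and RefSeq order gave neighbours. The steps were tested on simulated data with Python 3.11.15, numpy 2.4.6, pandas 2.3.3, scipy 1.17.1 and statsmodels 0.14.6.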

Additional observations from a re-analysis of the deposited data

How the results depend on the processing

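The counts of members past 2-fold and their median were recomputed with the floor moved to the 35th or 65th percentile or replaced by a pseudocount of 16, with 5 other scalings (quantile normalization, median centring, loess with span 0.4, hybridization controls, poly-A controls), with the middle probe set value per gene, with plain probe sets only, and with genes that reached the floor on both arrays, and the counts also at 3-fold and 1.5-fold. The number of higher members, 10 as deposited, was 16 under quantile normalization and 17 under loess, and otherwise ran from 8 to 15; the number of lower members ran from 20 to 30 around 27. The median of -0.33 became 0.0322 under quantile normalization, 0.0883 after centring, 0.0389 under loess and -0.0452 when scaled to the poly-A controls. Of the 37 members past 2-fold, 29 stayed past 2-fold in every alternative that gave them a value. The linear ratio of LPS over control moved by over 1.5 times for 22 of the 37 under loess and for 9 with the higher floor. The number was 4 with the median probe set and 3 with the lower floor. It was 2 each under quantile normalization and the pseudocount, and 1 with plain probe sets. The 8 that did not stay past 2-fold were Gna11, Gpr180, Gng2, Gnb5, Rgs11, Rgs19, Rgs3 and Rgs16. Rgs16 was lost with the higher floor and with its median probe set value, and each of the others under at least 1 scaling. Signals near the floor limit the dim genes. No paired analysis was possible because there is 1 array per group.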

Other observations

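Probe sets that the annotation assigns to several genes were left out of the members. Of 8 such probe sets that name a member symbol, none was higher with LPS by 2-fold or more. The 4 shared by Gpr137b and its copy Gpr137b-ps were all lower, from 2.34-fold to 4.18-fold, the brightest going from 3852 to 1439. The gamma subunit gene Gng5, which shares its probe sets with the copy Gng5-ps, had 8081 and 6929 by the brightest, a log2 ratio of -0.22, and -0.21 by the next. The probe set shared by Gpr146 and D830046C22Rik had 48.8 on the control array and 6.03, under the floor, on the LPS array.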
